A study of Rattus norvegicus with 6 samples.

Results

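Metallothioneins Mt1 and Mt2A are described here in neonatal rat ventricular cardiomyocytes, heart muscle cells taken from newborn rats and kept in culture. They are 2 of the 34052 features in the deposited expression table and were taken by their Ensembl gene numbers, ENSRNOG00000038047 for Mt1 and ENSRNOG00000043098 for Mt2A. Cells given 10 µM erastin for 24 h (n = 3 libraries) were set against control cells (n = 3 libraries), which the name of the deposited table calls vehicle. The labels give no strain, sex or exact age of the animals. Whether libraries of 1 group are from different cultures or litters is not said either, so the spread between them may be technical. Erastin inhibits the transporter that brings cystine into the cell, and it is used to set off ferroptosis, a form of cell death driven by iron and lipid peroxides. Both genes were chosen by their FPKM in the erastin libraries against the control libraries, so these values are a description and carry no p-value.

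Metallothioneins are small proteins in which clustered cysteines hold zinc, copper or cadmium. They buffer free zinc and can react with oxidants through the same cysteines. Mt1 and Mt2A are the forms found in most tissues, and in the heart they have been studied for protection against oxidative and metal injury. Their transcription is known to respond to zinc through the factor MTF1, which binds short metal response elements in front of the genes. Antioxidant response elements, the sites of the factor NRF2, and hormone signals are further known inputs.

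In the RefSeq annotation of assembly GRCr8, Mt1, Mt2A, Mt3 and Mt4 lie next to each other on chromosome 19, in that order, with no other annotated gene between them. The stretches in front of the genes that RefSeq calls Mt1 and Mt2A, matched by name only, are shown because the levels of both genes were higher together in the erastin libraries. Whether these stretches bear on that difference was not tested. Each sequence is the 250 bases before the RefSeq gene start, read 5′ to 3′ on the strand of the gene, which is the minus strand for both. Mt1 covers chr19:10832976-10833225 and Mt2A covers chr19:10838709-10838958. Capitals mark matches on either strand to 4 motifs: the core of the metal response element in its forms TGCACNC and TGCGCNC, the antioxidant response element-like TGACNNNGC, and the TATA box letters TATAAA.

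Mt1: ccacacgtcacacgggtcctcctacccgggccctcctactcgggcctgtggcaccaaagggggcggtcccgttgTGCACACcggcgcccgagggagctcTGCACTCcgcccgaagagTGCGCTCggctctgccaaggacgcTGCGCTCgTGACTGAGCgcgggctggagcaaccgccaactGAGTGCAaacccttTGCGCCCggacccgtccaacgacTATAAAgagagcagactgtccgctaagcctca
Mt2A: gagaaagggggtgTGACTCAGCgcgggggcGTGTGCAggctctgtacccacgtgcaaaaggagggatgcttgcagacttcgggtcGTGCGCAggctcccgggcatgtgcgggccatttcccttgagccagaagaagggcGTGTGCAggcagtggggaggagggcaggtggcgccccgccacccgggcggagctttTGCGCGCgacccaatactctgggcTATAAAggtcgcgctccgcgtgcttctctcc

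The Mt1 stretch held 6 matches to the metal response core and the Mt2A stretch held 4. In Mt1 they began 176, 151, 133, 109, 69 and 55 bases before the gene start, and in Mt2A 220, 165, 111 and 55 bases before it. The match nearest to the start therefore lay at the same distance in both genes. Of all 33469 RefSeq promoters searched over the same length, 20.6% held at least 1 match to either form, 0.266% (89 promoters) held at least 4 and 0.0269% (9 promoters) held at least 6. Mt3 held 3 matches and Mt4 held 1. The cut-offs of 4 and 6, used again below, are the counts of Mt2A and Mt1 themselves. Metal response elements were known in front of these genes beforehand, so these shares are a description only.

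Each gene also had 1 match to TGACNNNGC, which 10.1% of all promoters held. It began 101 bases before the start of Mt1, with 1 base between it and a metal response match, and 237 bases before the start of Mt2A. The Mt3 and Mt4 stretches had 0 such matches. The letters TATAAA, held by 12.9% of promoters, began 32 bases before the start of Mt1 and 31 before that of Mt2A. None of the marked matches overlapped another. Both stretches are rich in G and C, 66.4% for Mt1 and 66.0% for Mt2A against a median of 51.2% over all promoters. Of the 5428 promoters within 5 percentage points of these values, 36.7% held at least 1 metal response match, 0.755% at least 4 and 0.0737% at least 6, and 13.9% held TGACNNNGC. A match describes the letters and was not tested for binding.

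**Figure D1:**
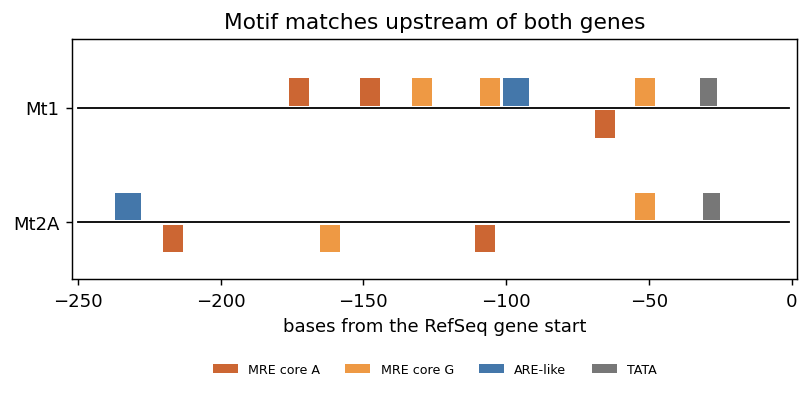
Positions of motif matches in the 250 bases before the RefSeq gene start of Mt1 (top) and Mt2A (bottom), with the distance from the start in bases on the x axis. Boxes above a line are matches on the strand of the gene and boxes below it on the opposite strand. MRE stands for metal response element (forms A and G are TGCACNC and TGCGCNC) and ARE for antioxidant response element. Mt1 has 6 MRE boxes and Mt2A has 4.

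Expression was measured by poly(A) RNA sequencing and deposited as FPKM, a level corrected for how long a feature is and how many fragments a library holds. The FPKM steps gave back library totals of 11506854 to 14914827 reads in control and 11126968 to 12017459 in erastin libraries. Recovered reads of all features summed to 99.5% to 99.6% of these totals, which therefore need not be all reads sequenced. As the libraries were sequenced as paired ends, a read here may stand for a pair. The FPKM steps also gave the reads behind each value and the length over which each gene was counted, 389 bases for Mt1 and 382 for Mt2A. These reads are the smallest whole numbers that fit. A fit required every value of a gene to lie within 0.005 of a whole number of reads. The largest distance for either gene was 2.2e-07 reads, for Mt1 in erastin replicate 3. As both transcripts are short, few reads carry a low level. A single read was worth 0.172 to 0.231 FPKM of Mt1 and 0.176 to 0.235 FPKM of Mt2A.

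Mt1, a metal-binding metallothionein, was low in control cells and higher in all erastin libraries. Its level was 8.71, 7.07 and 6.48 FPKM in control replicates 1, 2 and 3, from 39, 41 and 29 reads. In erastin replicates 1, 2 and 3 it was 107.4, 125.6 and 135.4 FPKM, from 466, 587 and 586 reads. The groups did not overlap: the lowest erastin library was 12.3 times the highest control library. The mean was 7.42 ± 1.16 FPKM in control and 122.8 ± 14.2 FPKM in erastin libraries (SD, n = 3), 16.6-fold higher. On the log2(FPKM + 1) scale, which understates the change of a gene this low in control, the difference was 3.88 (SE 0.12).

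Mt2A, the more abundant form, was already well above most features in control cells. Its level was 122.4, 114.4 and 86.9 FPKM in control replicates 1, 2 and 3, from 538, 652 and 382 reads. In erastin replicates 1, 2 and 3 it was 617.5, 708.6 and 726.7 FPKM, from 2630, 3253 and 3089 reads. Again the groups did not overlap, and the lowest erastin library was 5.05 times the highest control library. The mean was 107.9 ± 18.6 FPKM in control and 684.3 ± 58.5 FPKM in erastin libraries (SD, n = 3), 6.34-fold higher. The difference in log2(FPKM + 1) was 2.67 (SE 0.15).

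Most features moved in this comparison, which is the background for both genes. Of 13576 tested features, those that reached 1 FPKM in 3 or more libraries, 66.4% passed a Benjamini-Hochberg adjusted p of 0.05 in limma, 42.3% higher and 24.1% lower in erastin libraries. All erastin libraries lay above all control libraries in 45.7% of features, and the groups did not overlap in either direction in 72%. For the 1086 tested features counted over up to 500 bases, which include both metallothioneins, 24.1% were called higher and 27% had all erastin libraries above all control libraries. Both members had groups that did not overlap, but the choice of the genes used this contrast and nothing is read from that count. The median log2 difference of all tested features was 0.13. With each library centred on its median log ratio, 4253 features were called higher and 4287 lower, against 5744 and 3267 as deposited, and the differences of Mt1 and Mt2A were 3.75 and 2.54. Quantile normalization gave 4414 higher and 4115 lower features and differences of 3.75 and 2.55.

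**Figure D2:**
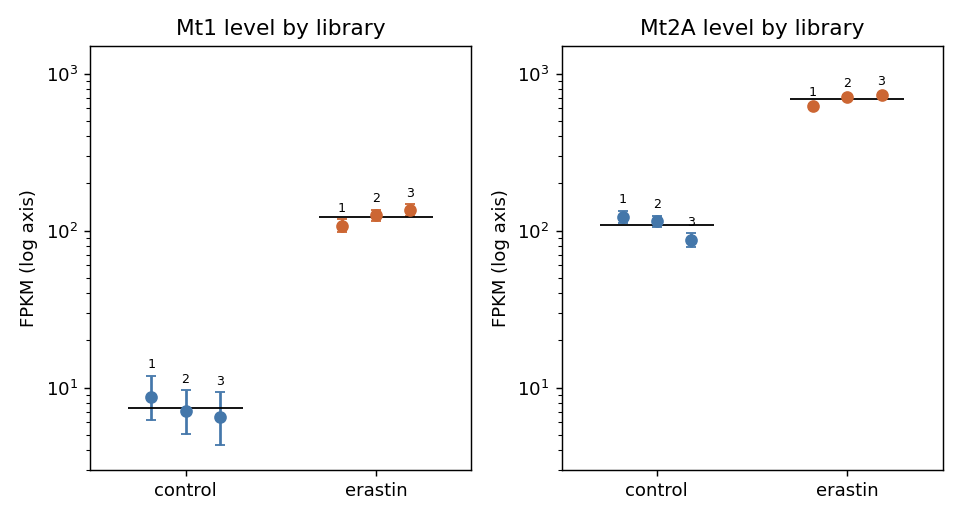
FPKM of Mt1 (left) and Mt2A (right) in each library on a log axis, with control libraries in blue and erastin libraries in orange, numbered by replicate. Error bars are exact 95% Poisson intervals on the recovered reads and cover counting error only, with reads taken as independent. Black lines are group means. The erastin points of Mt1 sit between 107.4 and 135.4 FPKM, close to the control points of Mt2A between 86.9 and 122.4 FPKM.

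In size, both differences were among the larger ones of the table. By log2(FPKM + 1) difference Mt1 was number 8 and Mt2A number 32 of the 13576 tested features. By the ratio of mean FPKM, which favours features near 0 in control, they were number 37 and number 101. A ratio of at least 4 was reached by 227 tested features (1.67%), at least 8 by 77 (0.567%) and at least 16 by 37 (0.273%), so that Mt1 was the last of the 37. Among the 1086 features counted over up to 500 bases, Mt1 was number 2 and Mt2A number 7 by log2 difference, and number 9 and number 27 by the ratio of mean FPKM.

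Features that started at a similar level seldom reached the same ratio. Of 4420 tested features with a control mean between 3.71 and 14.8 FPKM, within 2-fold of Mt1, 3 others had a ratio at least as large as that of Mt1. The median log2 difference of the 4420 features was 0.16. Of 1420 features between 54.0 and 215.8 FPKM, within 2-fold of Mt2A, 3 others had a ratio at least as large as that of Mt2A. The median log2 difference of the 1420 features was 0.04. These ranks describe the same contrast by which the genes were chosen.

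**Figure D3:**
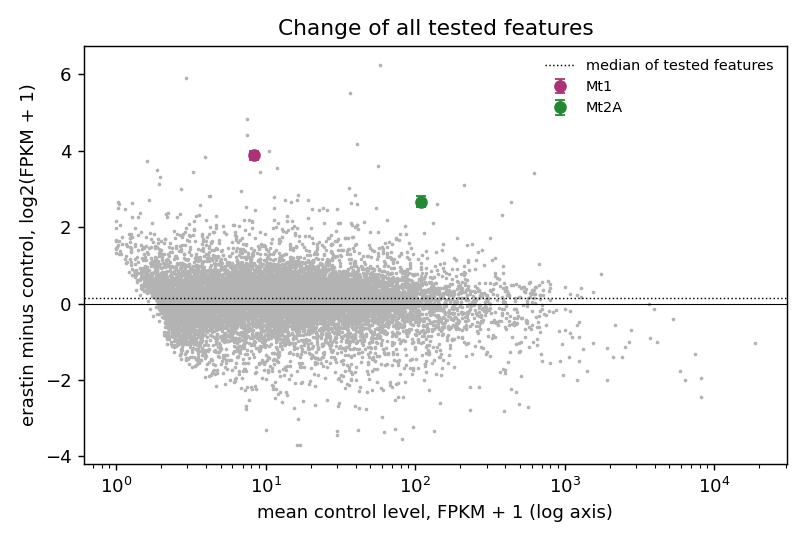
Difference between erastin and control libraries in log2(FPKM + 1) for each of the 13576 tested features (grey points) against the mean control level in FPKM + 1 on a log axis. Mt1 and Mt2A are drawn with their standard errors, and the dotted line is the median of all tested features at 0.13. Mt1 lies at 3.88 and Mt2A at 2.67, above nearly all features of a like control level.

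In the order of abundance, which restates the FPKM by which the genes were chosen, each gene stood far higher in erastin libraries. By mean FPKM, Mt1 was number 8327 of all features in control and number 751 in erastin libraries. Its control mean was above 38.7% of the tested features and its erastin mean above 94.5%. Mt2A was number 780 in control and number 75 in erastin libraries. In single libraries the place of Mt2A ran from 672 to 1007 in control and from 66 to 98 in erastin, and that of Mt1 from 7822 to 8708 and from 670 to 887. The 4 group means, from low to high, were Mt1 in control, Mt2A in control, Mt1 in erastin and Mt2A in erastin libraries. The middle neighbours overlapped, since control replicates 1 and 2 of Mt2A, at 122.4 and 114.4 FPKM, lay above erastin replicate 1 of Mt1 at 107.4 FPKM.

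The spread between libraries of a group was set beside counting error. For Mt1 in control the coefficient of variation was 15.6%, and counting alone at its mean number of reads gives 16.6%. The exact 95% Poisson intervals of its control libraries, which ran from 4.34 to 11.9 FPKM in all, overlapped one another. Overlap of intervals is not a test, and differences among these libraries were not tested. For Mt2A in control the coefficient of variation was 17.3% against 4.37% from counting. Control replicate 3, at 86.9 FPKM (interval 78.4 to 96.1), lay below the intervals of replicate 1 (112.3 to 133.2) and replicate 2 (105.8 to 123.6). In erastin libraries the coefficients of variation were 11.5% for Mt1 and 8.55% for Mt2A, against 4.28% and 1.83% from counting.

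By FPKM, both genes had the same lowest library in each group. Control replicate 3 was lowest for Mt1 and for Mt2A, and so was erastin replicate 1, while erastin replicate 3 was highest for both. For Mt1, at 29 reads in control replicate 3 against 39 and 41, the control intervals overlapped. The Mt1 intervals of erastin replicates 1 and 2 overlapped too, and those of erastin replicates 2 and 3 did for both genes. How many other features share these lowest libraries was not counted. The totals of these libraries, 11506854 reads in control replicate 3, 11149351 in erastin replicate 1 and 11126968 in erastin replicate 3, were close to each other. The median deviation of a library from its group mean over all tested features lay between -0.0042 and 0.0063 in log2(FPKM + 1). A median does not show how far single features deviate, and why both genes shared their lowest libraries was not tested. Leaving out control replicate 3 gave log2 differences of 3.80 for Mt1 and 2.52 for Mt2A.

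The balance between the forms was not the same in both groups. Mt2A stood at 14.0, 16.2 and 13.4 times the FPKM of Mt1 in control replicates 1, 2 and 3. In erastin replicates 1, 2 and 3 it stood at 5.75, 5.64 and 5.37 times. Every erastin ratio was below every control ratio, with means of 14.6 ± 1.46 and 5.59 ± 0.196 (SD, n = 3). Groups did not overlap in 72% of single tested features, and the share for pairs of features was not computed. The genes were also chosen by this contrast, so nothing is read from the separation of the ratios. In log2(FPKM + 1) the difference of Mt2A minus that of Mt1 was -1.22.

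Counted as reads, Mt1 made up 6.76%, 5.92% and 7.06% of the reads of both genes in control replicates 1, 2 and 3. The Wilson 95% intervals were 4.98% to 9.11%, 4.39% to 7.93% and 4.96% to 9.95%. In erastin replicates 1, 2 and 3 the share was 15.1%, 15.3% and 15.9%, with intervals of 13.8% to 16.4%, 14.2% to 16.5% and 14.8% to 17.2%. No control interval reached an erastin interval, in the same contrast by which the genes were chosen. These intervals cover counting error only. Reads without molecular identifiers are not independent molecules, so the intervals may be too narrow even for that.

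**Figure D4:**
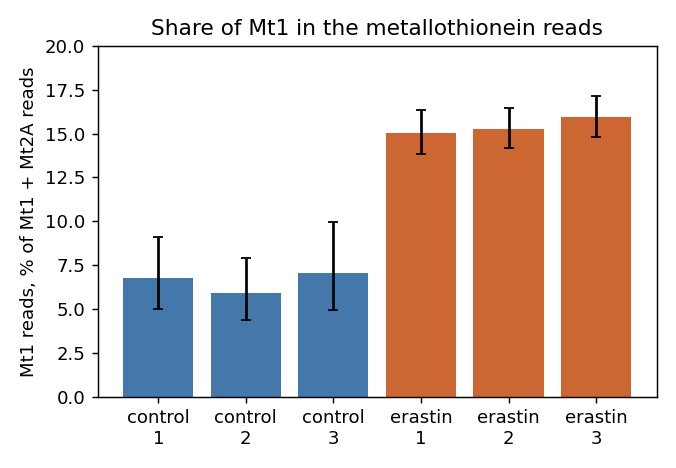
Mt1 reads as a percentage of the summed Mt1 and Mt2A reads in each library, with control libraries in blue and erastin libraries in orange. Error bars are Wilson 95% intervals and cover counting error only, with reads taken as independent. The control bars lie between 5.92% and 7.06% and the erastin bars between 15.1% and 15.9%.

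In absolute terms Mt2A still gained most. The summed level of both genes was 131.1, 121.5 and 93.4 FPKM in control replicates 1, 2 and 3 and 725.0, 834.2 and 862.1 FPKM in erastin replicates 1, 2 and 3. The means were 115.3 ± 19.6 and 807.1 ± 72.5 FPKM (SD, n = 3), 7.00-fold higher in erastin libraries. Mt2A held 83.3% of the gain of 691.8 FPKM. Scaled to 1000000 reads of a library, both genes together took 44.1 ± 7.49 reads in control and 309.2 ± 27.8 reads in erastin libraries (SD, n = 3). In such bulk libraries more cells that express a gene and more RNA per cell cannot be told apart.

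The features with the most similar pattern were found by the Euclidean distance over 6 libraries, after each was set relative to its own control mean in log2(FPKM + 1). The nearest of 13575 features to Mt1 was ENSRNOG00000004500 (distance 0.351), at 9.91, 10.0 and 8.70 FPKM in control replicates 1 to 3 and 164.6, 162.9 and 168.2 FPKM in erastin replicates 1 to 3. The nearest to Mt2A was ENSRNOG00000032917 (distance 0.231), at 13.5, 12.6 and 11.2 FPKM in control and 82.0, 91.4 and 88.1 FPKM in erastin replicates 1 to 3. Like Mt2A, ENSRNOG00000032917 was lowest in control replicate 3 and in erastin replicate 1. Unlike Mt2A, which was highest of the erastin libraries in replicate 3, it was highest in replicate 2. ENSRNOG00000004500 was lowest of the erastin libraries in replicate 2, whereas Mt1 was lowest in replicate 1. Both features were picked by these same values, so a shared order of libraries is no separate likeness. The metallothioneins were not each other's closest match: at a distance of 2.12, Mt2A was number 27 in likeness to Mt1, and Mt1 number 257 in likeness to Mt2A. These distances weigh the size of the difference most, and the symbols of both nearest features are not paired with their numbers in the sources used here.

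Several limits bear on these values. The deposited table gives Ensembl numbers without symbols, and 0 of its 34052 numbers could be matched to the RefSeq table, so the names were assigned to the numbers outside these sources and were not checked. For ENSRNOG00000038047 the assignment is to an Mt1-type gene, and it was not shown that this is the chromosome 19 Mt1 whose upstream sequence is printed. For the same reason the other metal-handling genes, Mt3, Mt4 and the markers of cardiomyocytes and other heart cells were not analysed here, and the labelled cell type was not checked. RefSeq also lists a metallothionein pseudogene, Mt1m, on chromosome 20 and a further gene, Mt1f, on chromosome X. How reads that fit more than 1 of these copies were assigned is not stated in the labels, which leaves the split of reads between Mt1 and its copies uncertain.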

How the data were processed

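RNA of 6 libraries, grouped by their titles as 3 control and 3 erastin, was sequenced as paired ends after poly(A) selection with dUTP marking of the second strand, per the labels' protocols. The submitters' processing notes list HISAT2 2.0.5 and DESeq2 without saying what each did. The build, annotation and counter were not given in the sources used here. FPKM were deposited by the authors, 1 column per library. Library totals, counted lengths and reads were recovered from the FPKM steps, with a tolerance of 0.005 reads. In all features tested (at least 1 FPKM in at least 3 libraries), log2(FPKM + 1) was fitted with limma 3.58.1 in R 4.3.3, with a prior that was trended and robust, and p-values were adjusted by Benjamini-Hochberg (threshold 0.05). The recovery and the fit were also run on simulated data, in which far fewer features changed than were called here. Nothing is read from that run. Python 3.11.15 with scipy 1.17.1 gave exact Poisson and Wilson 95% intervals and the motif search, on promoter sequences from RefSeq (GRCr8). The named features were the 2 members and the feature nearest to each. The members and lists were chosen with earlier results of these data known. Symbol lists were not analysed, since no symbols could be paired. The alternatives were a block for the replicate number, leaving out each library, other pseudocounts, filters and scalings, and voom on recovered reads. A prior that was not robust was added after seeing the data.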

Additional observations from a re-analysis of the deposited data

How the results depend on the processing

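Across all alternatives the log2 difference of Mt1 lay between 3.75 and 4.05 and that of Mt2A between 2.52 and 2.76, and neither moved by more than its spread between libraries. Leaving out 1 library at a time gave 3.80 to 3.99 for Mt1, 2.52 to 2.76 for Mt2A and -1.28 to -1.14 for Mt2A minus Mt1. The last difference, -1.22, moved by more than the spread to -1.36 and -1.38 with pseudocounts of 0.1 and 0.01 FPKM and to -1.37 with voom on recovered reads. A pseudocount of 1 FPKM shrinks the difference of Mt1 by construction, as its control level is low. Between 7230 and 9308 features were called, against 9011 of 13576 tested and within 1.5 times of it. The numbers tested differed: 7230 were of 9648 with a mean of at least 5 FPKM, and 9308 of 22354 without a filter. The share called therefore varied more than the counts. The prior that was not robust, an alternative chosen after seeing the data, gave 9035. The share of changed features that were higher was 63.7%, and 49.8% with centring and 51.8% with quantile normalization. Fitting a replicate block gave 8768 calls, of which 5583 were higher and 3185 lower, and the differences of both genes stayed at 3.88 and 2.67 because the design is balanced. The labels do not pair libraries of the same number, and the correlations of their deviations across features were -0.03, 0.07 and 0.03. The control level of Mt1 rests on 29 to 41 reads a library, which limits the precision of its fold.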
